A study of Homo sapiens with 12 samples.

Results

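The miR-15, miR-16, miR-103 and miR-107 group comprised 9 of the 372 miRNA assays on a PCR array. The members were every arm measured of miR-15a, miR-15b, miR-16, miR-103a, miR-107, miR-195 and miR-497, taken by name. This list of names was chosen with earlier results of these data known. They were the 7 guide arms hsa-miR-15a-5p, hsa-miR-15b-5p, hsa-miR-16-5p, hsa-miR-195-5p, hsa-miR-497-5p, hsa-miR-103a-3p and hsa-miR-107 (hsa, for human, is left out below), and the other arms of 2 hairpins, miR-15b-3p and miR-195-3p. OCI-My5 is a human multiple myeloma (MM) cell line. My5.LV cells are OCI-My5 cells with the lentiviral vector alone and a low level of cereblon (CRBN). My5.CRBN cells are OCI-My5 cells given a His-tagged CRBN cDNA by the same kind of vector, and have a high level of CRBN. Each of these 2 lines was measured un-treated, with AGO2-sh72 (an shRNA against AGO2, also called EIF2C2), with AGO2 cDNA, after 72 or 120 hours of lenalidomide at 10 μM, and with AGO2 cDNA plus the same dose for 72 hours. The shRNA and the cDNA were delivered by lentiviral particles, and RNA from these cells was taken after 3 days. By the paper's methods, cells infected in this way were selected with puromycin. None of the arrays had cells with the empty vector of the shRNA or of the cDNA. Comparisons with cells that got neither thus differ in this infection and selection as well as in AGO2, and these cannot be told apart. By the labels, no array had cells with the solvent of the drug alone, or un-treated cells matched to 72 or 120 hours. In comparisons of lenalidomide with un-treated cells, the drug thus cannot be told apart from solvent or time in culture. Each condition had 1 array of RNA from a whole culture, so no p-value is given, and fewer cells with a miRNA cannot be told apart from less of it per cell.

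AGO2 is the Argonaute protein that holds a mature miRNA and brings it to its target mRNAs. One strand of each miRNA hairpin, the guide, is kept in Argonaute more often than the strand from the opposite arm. Bases 2 to 8 of the guide, the seed, pair with the target. miR-15a and miR-16 are encoded together in a region of chromosome 13 that is often deleted in B cell malignancies, myeloma among them, and members of this family are known to repress cell cycle genes and BCL2. miR-103a and miR-107 lie in introns of pantothenate kinase genes, whose proteins catalyse the first step of coenzyme A synthesis.

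The guide arms are shown because a single stretch of bases runs through all of them, with the seed in capitals, 5′ to 3′, as RefSeq gives them.
miR-15a-5p: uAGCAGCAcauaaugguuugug
miR-15b-5p: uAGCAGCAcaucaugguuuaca
miR-16-5p: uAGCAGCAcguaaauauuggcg
miR-195-5p: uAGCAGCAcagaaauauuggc
miR-497-5p: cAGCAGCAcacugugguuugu
miR-103a-3p: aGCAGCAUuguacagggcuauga
miR-107: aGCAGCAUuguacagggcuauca
In the first 5 of these the seed is AGCAGCA, and in miR-103a-3p and miR-107 it is GCAGCAU, because the letters AGCAGCA start at base 1 there. Of the 330 miRNAs on the array with a RefSeq mature sequence of the same name, 8 (2.42%) held AGCAGCA within bases 1 to 8. They were the 7 guide arms and miR-424-5p, a miRNA of the X chromosome outside the group.
miR-424-5p: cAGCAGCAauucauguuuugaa
The opposite arms of the group do not carry this stretch in their seeds.
miR-15b-3p: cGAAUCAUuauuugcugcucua
miR-195-3p: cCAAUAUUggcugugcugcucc

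Some of these sequences are close enough that an assay could detect its neighbour. Counting positions from 1 at the 5′ end, miR-103a-3p and miR-107 differed by the 1 substitution G22C. miR-16-5p and miR-195-5p differed by G10A and U11G over 21 bases, and miR-15a-5p and miR-15b-5p by A12C, G20A, U21C and G22A. Detection of one by the assay of the other was not tested.

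By position in GRCh38.p14, the members come from clustered and intronic genes. MIR15A (mature arm at chr13:50049167-50049188, minus strand) and MIR16-1 (chr13:50049027-50049048, minus strand) lie in the long non-coding RNA gene DLEU2, with 57 bases between their hairpins. MIR15B (miR-15b-5p at chr3:160404607-160404628 and miR-15b-3p at chr3:160404645-160404666, plus strand) and MIR16-2 (chr3:160404754-160404775, plus strand) lie in SMC4, a condensin subunit gene, with 59 bases between hairpins. Both MIR16-1 and MIR16-2 give the same mature miR-16-5p, so its assay cannot separate the clusters. MIR195 (miR-195-5p at chr17:7017667-7017687, minus strand) and MIR497 (chr17:7017979-7017999, minus strand) lie in MIR497HG with 209 bases between hairpins. miR-103a-3p is given by MIR103A1 in PANK3 (chr5:168560904-168560926, minus strand) and by MIR103A2 in PANK2 (chr20:3917541-3917563, plus strand), and miR-107 by MIR107 in PANK1 (chr10:89592756-89592778, minus strand).

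The value of a member is its threshold cycle (Ct), the PCR cycle at which the signal crosses a threshold. The mean Ct of 6 small-RNA control wells of the same array (5 SNORD wells and RNU6-2) was subtracted to give the normalized Ct. A higher normalized Ct stands for a lower steady-state level, and 1 cycle is taken as 1 unit on the log2 scale. Subtracting the test array's normalized Ct from the reference array's gave the log2 fold change. For scale, the SD of the same difference over the 6 control wells is given for each comparison. It is the spread between different control assays on the same arrays. It holds no variation between cultures or between repeats of a member's assay, so a value beyond it is not thereby shown to be a change. Each array had from 324 to 367 miRNAs below the Ct cap of 35, the control wells had mean Ct values from 18.7 to 21.9, and duplicate wells differed by 0.187 (reverse transcription control) and 0.383 (PCR control) cycles (root mean square over 12 arrays). All 9 members were under the cap on all 12 arrays, so each value is measured on both sides of every comparison. The array measures no mRNA, so the AGO2 level was not checked here. The level of one member was not set against that of another, since each assay has its own efficiency.

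With AGO2-sh72, the largest decreases of the group were those of miR-103a-3p, miR-107 and miR-15a-5p, and this held in both cell lines. For miR-103a-3p, the normalized Ct in My5.LV cells was -0.55 un-treated, 2.00 with sh72, -0.58 with AGO2 cDNA, -0.25 and -1.60 after 72 and 120 hours of lenalidomide, and -0.73 with AGO2 cDNA and lenalidomide. In My5.CRBN cells the normalized Ct of miR-103a-3p in the same order was -0.46, 1.45, -0.58, -0.19, -0.91 and -0.43. The 2 sh72 arrays lay apart from the 10 others in level by 1.63 cycles. The level of miR-103a-3p was thus 5.86 fold lower with sh72 in My5.LV cells (log2 fold change -2.55, SD of control wells 0.51) and 3.76 fold lower in My5.CRBN cells (-1.91, SD 0.30).

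For miR-107, which differs from miR-103a-3p by a single base, the normalized Ct in My5.LV cells was 6.10 un-treated, 8.31 with sh72, 5.09 with AGO2 cDNA, 6.46 and 5.25 after 72 and 120 hours of lenalidomide, and 5.53 with AGO2 cDNA and lenalidomide. In My5.CRBN cells the values for miR-107 were 5.83, 7.99, 5.0, 6.40, 6.04 and 6.05. Here too the sh72 arrays stood apart, with a gap of 1.53 cycles to the nearest other array. The lowest normalized Ct values, and so the highest levels, were those with AGO2 cDNA and no lenalidomide. The margin was narrow, 5.09 in My5.LV cells against 5.25 after 120 hours of lenalidomide, which is less than the spread between duplicate wells. How many other miRNAs had this order was not counted. The fold changes with sh72 were 4.63 fold lower in My5.LV cells (-2.21) and 4.47 fold lower in My5.CRBN cells (-2.16).

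miR-15a-5p, encoded beside miR-16-1, was the steadiest guide arm away from the knockdown. Its normalized Ct in My5.LV cells was 2.56 un-treated, 4.57 with sh72, 2.55 with AGO2 cDNA, 2.85 and 2.75 after 72 and 120 hours of lenalidomide, and 2.70 with AGO2 cDNA and lenalidomide. In My5.CRBN cells it was 2.84, 4.76, 2.83, 2.70, 2.53 and 2.60. On the 10 arrays without sh72 it stayed between 2.53 and 2.85, and the gap to the sh72 arrays was 1.72 cycles. The level was 4.03 fold lower with sh72 in My5.LV cells (-2.01) and 3.79 fold lower in My5.CRBN cells (-1.92).

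**Figure D1:**
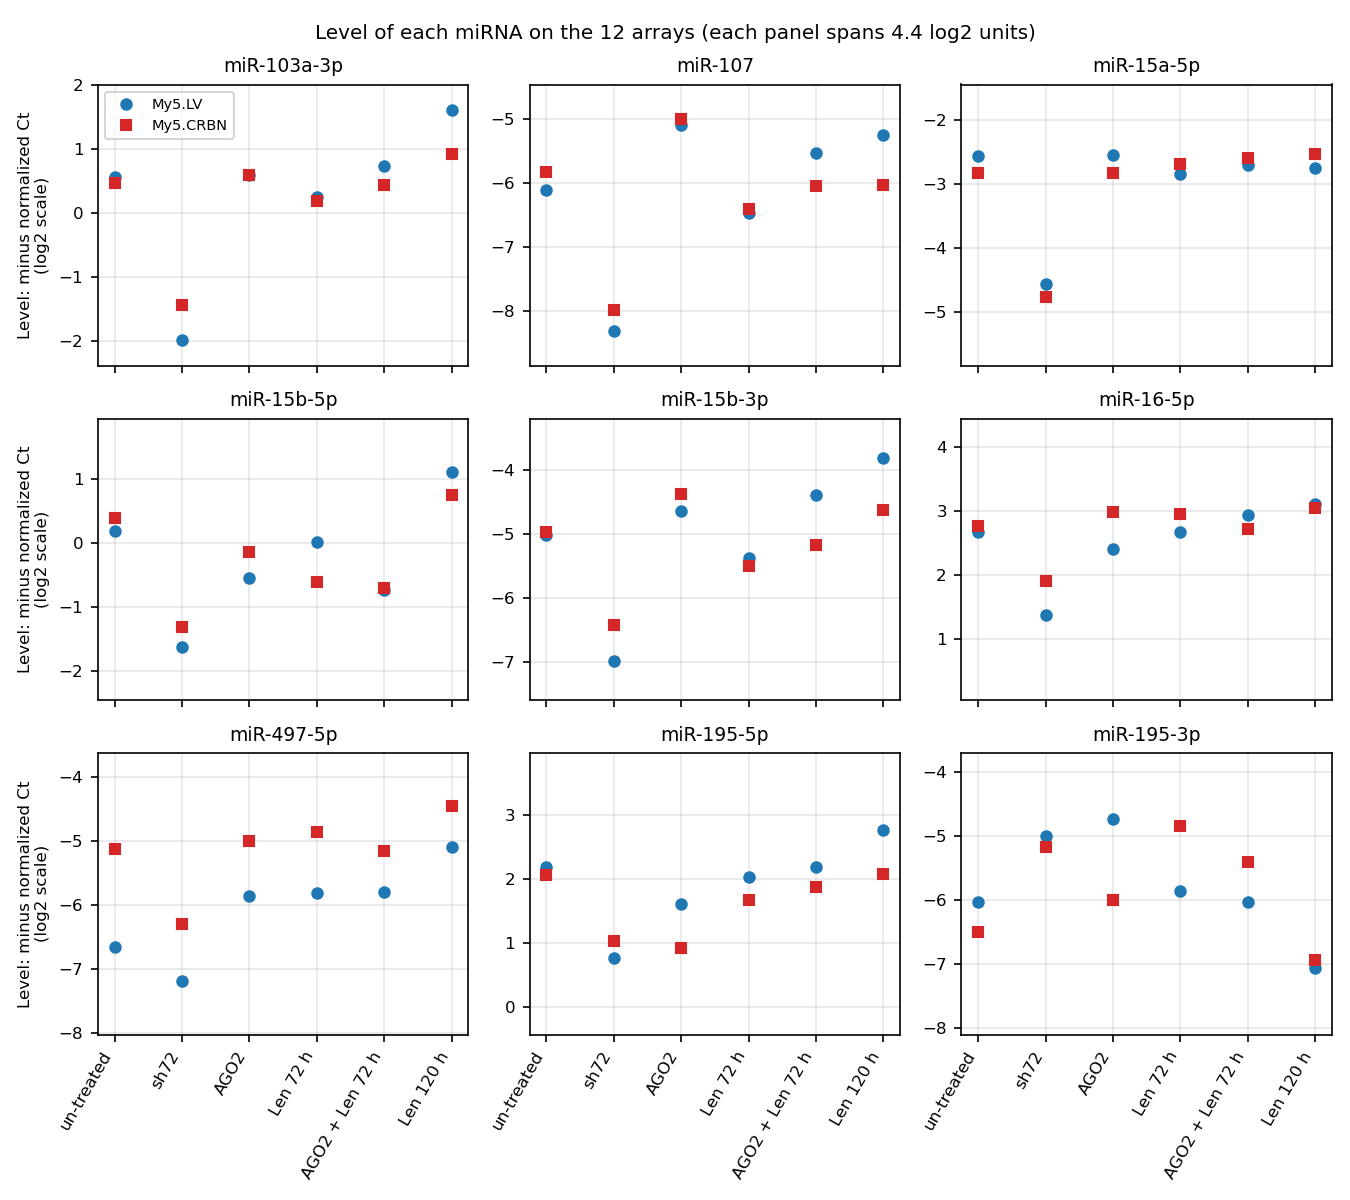
Level of each of the 9 members on the 12 arrays, as minus the normalized Ct (log2 scale, so up is a higher level), with 1 point per array, circles for My5.LV and squares for My5.CRBN. Each panel has its own level but the same span. The sh72 points of miR-103a-3p, miR-107 and miR-15a-5p lie below all others by 1.63, 1.53 and 1.72 cycles, and those of miR-195-3p lie above the un-treated points.

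Of the 7 guide arms, the 4 at least 3 fold lower with sh72 were miR-103a-3p, miR-107, miR-15a-5p and miR-15b-5p, in either line. This count was 1 in each line with the global mean as normalizer (the mean Ct of the miRNAs below the cap on every array), and 0 in each after subtraction of the median of miRNAs of similar Ct. With the 6 control wells, such a decrease was found for 24.2% of 363 miRNAs compared in My5.LV cells and for 13.3% of the 360 in My5.CRBN. No array is shared by the comparisons of the cell lines, and 37 of 356 miRNAs (10.4%) passed 3 fold downward in each of them. None of the 9 members was at least 3 fold higher, beside 1.93% of miRNAs in the first line and 1.67% in the second, but miR-195-3p passed 3 fold upward in both under 2 of the alternatives, as given with its values. The median log2 fold change of the guide arms was -1.82 in My5.LV cells, against -0.81 over all miRNAs, and -1.70 in My5.CRBN cells, against -0.58. All 7 guide arms were below 0 in both lines, whereas with the global mean miR-497-5p was at 0.32 in the My5.LV line. With the control wells the median of all miRNAs was below 0 too, and the share of all miRNAs below 0 was not counted.

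miR-15b-5p, from the cluster in SMC4, had a normalized Ct of -0.18 un-treated and 1.63 with sh72 in My5.LV cells, and of -0.39 and 1.31 in My5.CRBN cells. This made it 3.52 fold lower (-1.82) and 3.25 fold lower (-1.70). The opposite arm of the same hairpin, miR-15b-3p, was lower as well, by 3.90 fold in My5.LV cells (-1.96) and by 2.75 fold in My5.CRBN cells (-1.46). With it, 5 of the 9 members passed 3 fold downward in the My5.LV line and 4 in the My5.CRBN line.

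The remaining guide arms did not reach 3 fold. miR-16-5p, which shares clusters with miR-15a and miR-15b, had a normalized Ct of -2.67 un-treated and -1.37 with sh72 in My5.LV cells, and of -2.76 and -1.90 in My5.CRBN cells. It was 2.46 fold lower (-1.30) in the former and 1.81 fold lower (-0.86) in the latter. miR-195-5p, with its near-identical sequence, was 2.68 fold (-1.42) and 2.03 fold (-1.02) lower. The log2 fold changes of miR-497-5p were -0.54 in My5.LV cells, close to the SD of 0.51, and -1.17 in My5.CRBN cells. miR-424-5p, the array's other miRNA with the AGCAGCA seed, was 2.54 fold lower in My5.LV cells (-1.34) and 1.59 fold lower in My5.CRBN cells (-0.67).

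miRNAs of a Ct similar to the guide arms were lower with sh72 than miRNAs as a whole. Those whose mean Ct on the other 10 arrays lay within 1 cycle of a guide arm had medians from -1.67 to -1.17 in My5.LV cells and from -1.55 to -0.85 in My5.CRBN cells. miR-107 lay below the median of its class by 0.98 and 1.31, miR-103a-3p by 0.88 and 0.78, and miR-15a-5p by 0.49 and 0.71. miR-16-5p and miR-195-5p lay above theirs, miR-16-5p by 0.10 and 0.69 and miR-195-5p by 0.03 and 0.52. These classes were small, with 5 miRNAs for miR-16-5p in each line and 11 (My5.LV) and 10 (My5.CRBN) for miR-195-5p. Other members of the group were not left out of a class. miR-497-5p lay above its class by 0.63 in My5.LV cells and had a difference of -0.28 from it in My5.CRBN cells. Counted over the guide arms, 4 of 7 were below miRNAs of similar Ct in My5.LV cells and 5 of 7 in the My5.CRBN line. By construction about as many miRNAs lie below the median of their class as above it. The share over all miRNAs was not counted, so these counts are no result about the group.

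**Figure D2:**
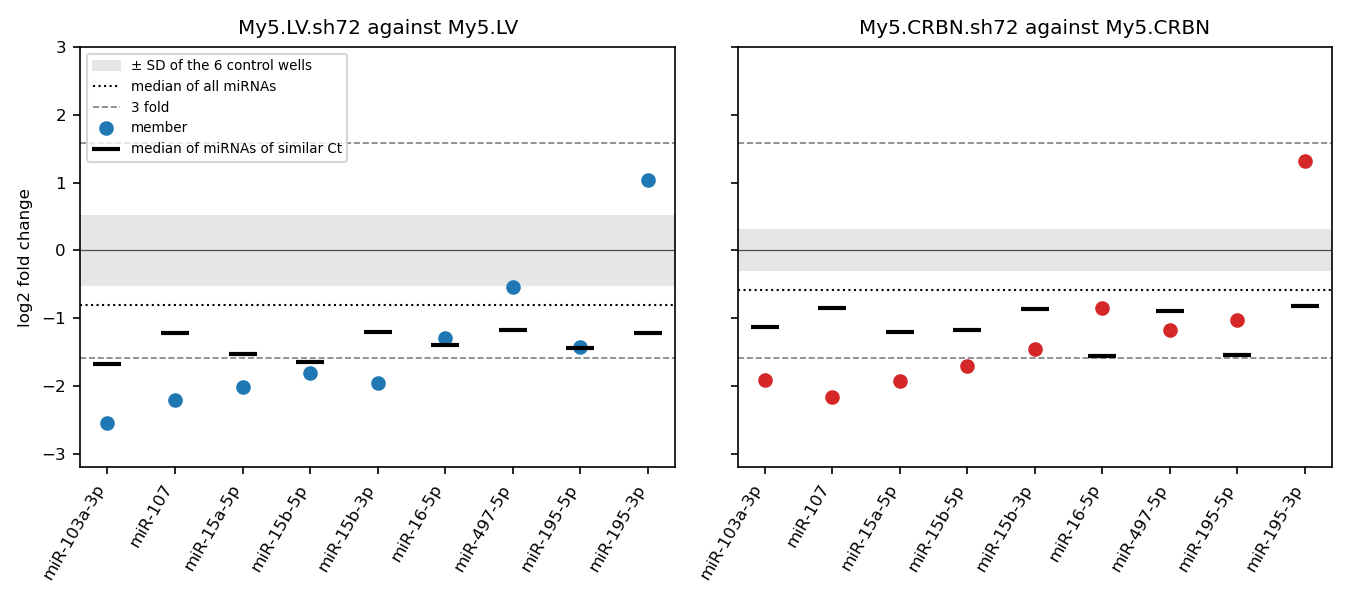
Log2 fold change of each member with AGO2-sh72 in My5.LV (left) and My5.CRBN cells (right), with 1 array on each side of the comparison. Points are members, black bars the median of miRNAs of similar Ct, the grey band ± 1 SD of the 6 control wells, the dotted line the median of all miRNAs and the dashed lines 3 fold. miR-103a-3p, miR-107 and miR-15a-5p lie below their black bars in both panels, and miR-195-3p is at 1.03 and 1.32.

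The sh72 arrays were also set against the 10 others together. The levels on both sh72 arrays were below all 10 others for 6 of the 9 members, miR-15a-5p, miR-103a-3p, miR-107, miR-15b-3p (gap 0.924 cycles), miR-15b-5p (0.571) and miR-16-5p (0.512), beside 39.8% of the 314 miRNAs under the cap on all arrays. miR-195-5p overlapped, since its level with AGO2 cDNA in My5.CRBN cells was as low (normalized Ct -0.92, against -1.03 with sh72). The global mean of those 314 miRNAs as normalizer left miR-15a-5p, miR-103a-3p, miR-107 and miR-15b-3p apart, beside 15% of all.

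**Figure D3:**
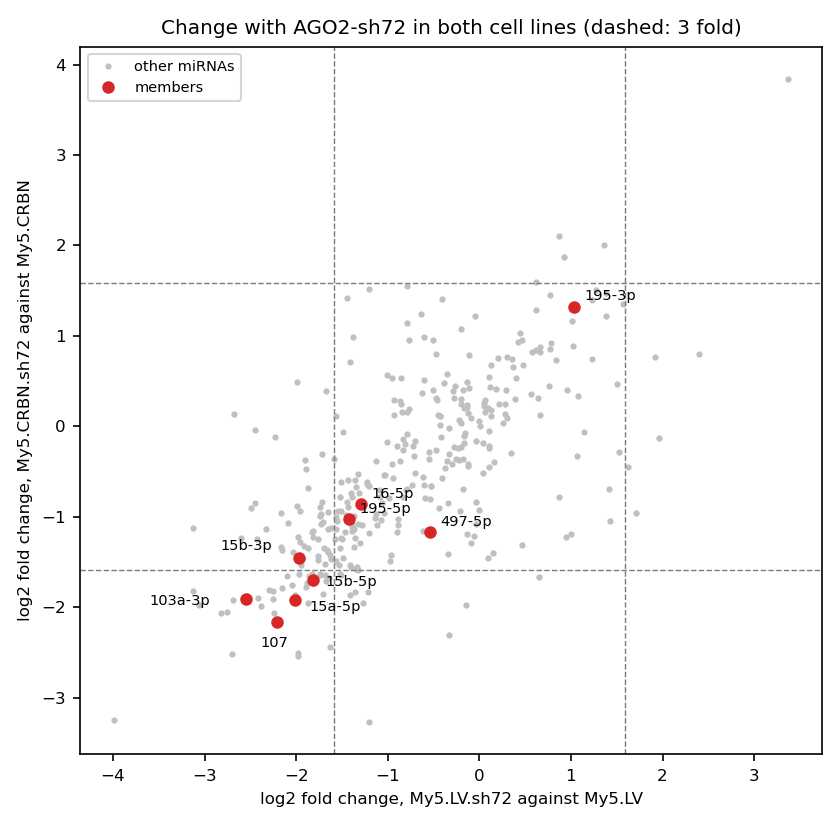
Log2 fold change with AGO2-sh72 in My5.LV cells (horizontal axis) against that in My5.CRBN cells (vertical axis), 1 point per miRNA, with the 9 members in red and the other miRNAs in grey and dashed lines at 3 fold. miR-103a-3p, miR-107, miR-15a-5p and miR-15b-5p lie past 3 fold in both lines, and miR-195-3p is at the opposite end.

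miR-195-3p went the other way from the rest of the group. Its normalized Ct in My5.LV cells was 6.04 un-treated, 5.0 with sh72, 4.75 with AGO2 cDNA, 5.86 and 7.07 after 72 and 120 hours of lenalidomide, and 6.04 with AGO2 cDNA and lenalidomide. In My5.CRBN cells it was 6.51, 5.18, 6.01, 4.86, 6.94 and 5.42. The level with sh72 was 2.05 fold higher than un-treated in My5.LV cells (1.03) and 2.50 fold higher in My5.CRBN cells (1.32), under the 3 fold limit. With RNU6-2 alone as normalizer these log2 fold changes were 0.05 and 0.87. They were past 3 fold in both lines with the global mean (1.90 and 1.87) and after subtraction of miRNAs of similar Ct (2.26 and 2.14). The other arm of the same hairpin, miR-195-5p, was lower in both lines.

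The distance between the arms of a hairpin can be read on each array without any normalizer, as the Ct of the 3p arm minus that of the 5p arm. For miR-195 it was 8.22 cycles un-treated, 5.77 with sh72, 6.36 with AGO2 cDNA, 7.89 and 9.84 after 72 and 120 hours of lenalidomide, and 8.23 with AGO2 cDNA and lenalidomide in My5.LV cells. In My5.CRBN cells it was 8.56, 6.21, 6.93, 6.53, 9.02 and 7.30. The arms were closest on the sh72 arrays, which lay below the 10 others, and farthest apart on the 120 hour arrays, which lay above the 10 others. The separation of the sh72 arrays was narrow, with 6.21 cycles in My5.CRBN cells against 6.36 with AGO2 cDNA in My5.LV cells. That difference is less than the spread between duplicate wells. Of the 63 hairpins with both arms under the cap on all arrays, 20.6% had sh72 arrays below all others in this distance and 25.4% had 120 hour arrays above all others.

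For miR-15b the distance between arms followed AGO2 cDNA. It was 5.20 cycles un-treated, 5.34 with sh72, 4.10 with AGO2 cDNA, 5.40 and 4.93 after 72 and 120 hours of lenalidomide, and 3.64 with AGO2 cDNA and lenalidomide in My5.LV cells. In My5.CRBN cells it was 5.35, 5.11, 4.23, 4.89, 5.37 and 4.47. The 4 arrays with AGO2 cDNA thus ran from 3.64 to 4.47 cycles and the 8 others from 4.89 to 5.40, without overlap. Among the 63 hairpins, 3 (4.76%) had all 4 AGO2 cDNA arrays below the 8 others. The comparison over hairpins was chosen after the values of miR-15b were seen.

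**Figure D4:**
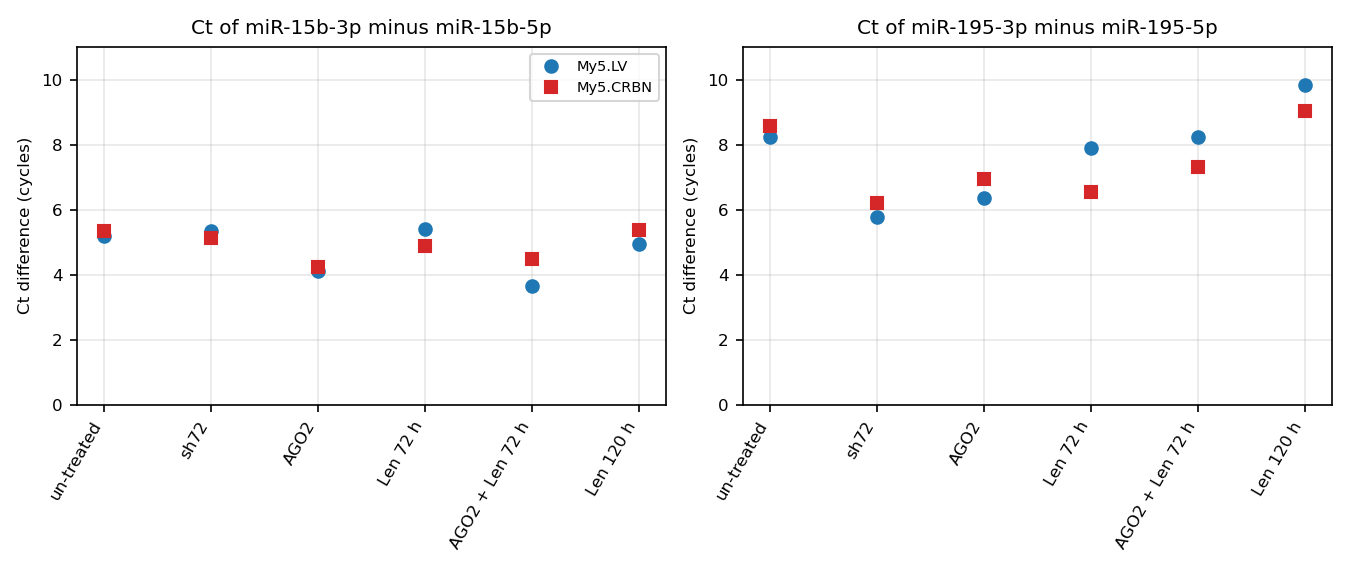
Ct of the 3p arm minus Ct of the 5p arm on the 12 arrays for miR-15b (left) and miR-195 (right), in cycles, with 1 point per array, circles for My5.LV and squares for My5.CRBN. The AGO2 cDNA arrays of miR-15b lie at 4.47 or below and the others at 4.89 or above, and for miR-195 the sh72 arrays are lowest and the 120 hour arrays highest.

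With AGO2 cDNA alone, the medians of the guide arms were near the un-treated level. None of the 9 members was at least 3 fold higher or lower in either line, beside 6.04% of 364 miRNAs higher and 0.824% lower in My5.LV cells, and 2.28% of 351 higher and 6.55% lower in My5.CRBN cells. The median of the guide arms was 0.01 in My5.LV cells (all miRNAs 0.15, SD of control wells 0.41) and 0.12 in My5.CRBN cells (all miRNAs -0.17, SD 0.56). miR-107 had the highest value of the guide arms in both lines, 1.01 and 0.83 (0.37 and 0.60 with RNU6-2 alone as normalizer). miR-15b-5p was lower in both, with -0.73 and -0.53, while miR-15b-3p had 0.37 and 0.59. For miR-195-5p the values were -0.57 and -1.14.

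Set against sh72 instead, AGO2 cDNA gave higher levels of most members. These comparisons use the same sh72 arrays as above and so are no separate evidence on sh72. In My5.LV cells 4 of the 9 members, miR-107 (3.22), miR-103a-3p (2.58), miR-15b-3p (2.33) and miR-15a-5p (2.03), were at least 3 fold higher, beside 23% of 361 miRNAs. In My5.CRBN cells the same 4 were at least 3 fold higher, miR-107 (2.99), miR-15b-3p (2.05), miR-103a-3p (2.03) and miR-15a-5p (1.93), beside 10.6% of 357. The median of the guide arms was 1.34 (all miRNAs 0.92, SD 0.23) in My5.LV cells and 1.31 (all miRNAs 0.35, SD 0.39) in My5.CRBN cells. None was at least 3 fold lower, beside 0.277% and 3.64%. miR-195-5p was at 0.85 and -0.11, and miR-195-3p at 0.26 and -0.83. With the global mean, miR-16-5p (-0.01) and miR-195-5p (-0.20) were below 0 in the My5.LV line.

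Un-treated My5.CRBN and My5.LV cells had similar levels of the group, with 1 exception. The median log2 fold change of the guide arms was 0.09 (SD of control wells 0.22), and 0 of 9 members differed by at least 3 fold, beside 2.23% of 358 miRNAs higher and 1.96% lower in My5.CRBN cells. miR-497-5p, encoded beside miR-195, had a log2 fold change of 1.52, just under 3 fold. Its normalized Ct in My5.LV cells was 6.65 un-treated, 7.20 with sh72, 5.86 with AGO2 cDNA, 5.81 and 5.10 after 72 and 120 hours of lenalidomide, and 5.80 with AGO2 cDNA and lenalidomide. In My5.CRBN cells it was 5.13, 6.31, 5.0, 4.86, 4.46 and 5.16. Among the My5.LV arrays without sh72, the un-treated array had the lowest level of miR-497-5p (6.65, the others from 5.10 to 5.86). The value of 1.52 and all its My5.LV log2 fold changes against un-treated use that 1 well, so they are not separate findings. The level was higher in My5.CRBN cells in all 6 matched conditions, by 0.64 to 1.52 (median 0.875), and so was that of miR-424-5p, by 0.20 to 1.09 (in 5 of 6 with RNU6-2 alone as normalizer). In all, 6.05% of 314 miRNAs were higher in My5.CRBN cells in all 6. miR-195-5p, from the gene beside MIR497, was higher in My5.CRBN cells in 1 of 6.

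After 72 hours of lenalidomide the median of the guide arms differed from un-treated by less than the SD of the control wells in My5.LV cells. In My5.CRBN cells it was lower by more than that SD. In My5.LV cells 0 of 9 members passed 3 fold, beside 0.549% of 364 miRNAs in each direction, and the median of the guide arms was -0.16 (all miRNAs -0.13, SD 0.18). miR-497-5p, at 0.84, was the member farthest from 0, against the same un-treated well as above. In My5.CRBN cells the median of the guide arms was -0.28 (all miRNAs 0.32, SD 0.22). There, 1 of 9 members was at least 3 fold higher, miR-195-3p (1.65), beside 10.1% of 367 miRNAs, and 0 were at least 3 fold lower, beside 0.272%. With the global mean as normalizer the value of miR-195-3p was 1.30, under 3 fold. The lowest member was miR-15b-5p, at -1.0.

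After 120 hours of lenalidomide the guide arms were mostly higher than un-treated, though none reached 3 fold. In My5.LV cells 6 of 7 guide arms were above 0, with a median of 0.86 (all miRNAs -0.03, SD 0.41), and in My5.CRBN cells 6 of 7 with a median of 0.30 (all miRNAs -0.14, SD 0.22). The share of all miRNAs above 0 was not counted. miRNAs of similar Ct were higher as well in My5.LV cells, with medians from 0.18 to 0.56. In My5.CRBN cells their medians ran from -0.14 to 0.13. In each line, 1 of 7 guide arms lay below the median of its class, and the share over all miRNAs was not counted. Of all miRNAs, 4.42% of 362 were at least 3 fold higher and 14.6% lower in My5.LV cells, and 5.23% of 363 higher and 11.3% lower in My5.CRBN cells. miR-497-5p was the highest guide arm in both lines (1.55 and 0.68), followed in My5.LV cells by miR-103a-3p (1.05) and miR-15b-5p (0.93). In My5.CRBN cells these were 0.44 and 0.36. The value of 1.55 for miR-497-5p again uses its un-treated My5.LV well. The member below 0 among the guide arms was miR-15a-5p in My5.LV cells (-0.19) and miR-107 in My5.CRBN cells (-0.21), each within the SD of the control wells. With the global mean as normalizer both were just above 0, at 0.04 and 0.03.

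The levels of miR-103a-3p, miR-15b-5p and miR-16-5p on both 120 hour arrays were above those on all 10 others, beside 7.64% of 314 miRNAs. For miR-16-5p the normalized Ct at 120 hours was -3.11 for My5.LV and -3.05 for My5.CRBN, and the nearest other array was AGO2 cDNA treated My5.CRBN at -2.98. That difference is smaller than the spread between duplicate wells. For miR-103a-3p the higher of the 120 hour values was -0.91, and the nearest other array was at -0.73. For miR-15b-5p these were -0.75 and -0.39. The difference for miR-103a-3p is also smaller than both duplicate spreads (0.187 and 0.383 cycles), and that for miR-15b-5p is smaller than the larger of them. miR-195-3p was the opposite, with both 120 hour arrays below all 10 others by 0.438 cycles, beside 17.5% of miRNAs, a separation that was lost with RNU6-2 alone as normalizer. Its log2 fold changes were -1.04 and -0.44.

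**Figure D5:**
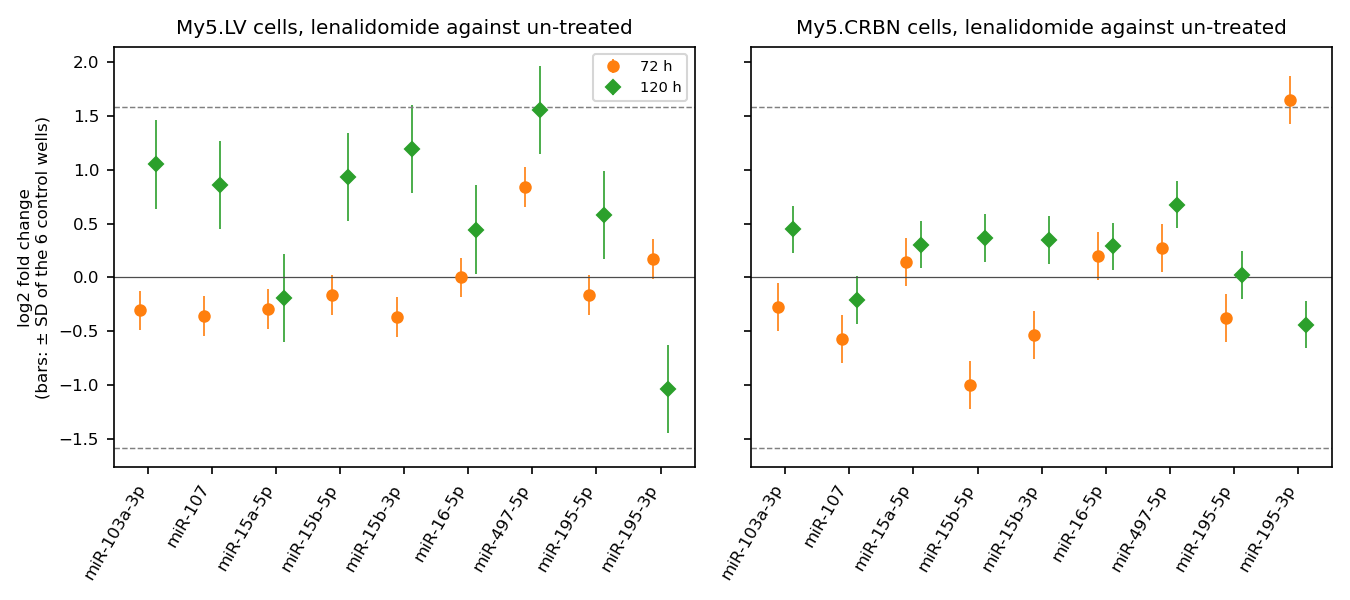
Log2 fold change of each member after 72 hours (circles) and 120 hours (diamonds) of 10 μM lenalidomide against un-treated My5.LV (left) and My5.CRBN cells (right), 1 array on each side. Bars are ± 1 SD of the 6 control wells and dashed lines 3 fold. At 120 hours 6 of 7 guide arms are above 0 in each line (the share of all miRNAs was not counted) and miR-195-3p is below 0. At 72 hours miR-195-3p in My5.CRBN cells is past 3 fold.

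When AGO2 cDNA was present during the 72 hours of lenalidomide, the guide arms were close to lenalidomide alone. The median was 0.16 in My5.LV cells (all miRNAs -0.12, SD 0.58) and 0.10 in My5.CRBN cells (all miRNAs -0.32, SD 0.45). None of the 9 members passed 3 fold, beside 1.09% of 366 miRNAs higher and 4.37% lower in My5.LV cells and 1.09% of 368 higher and 7.07% lower in My5.CRBN cells. miR-15b-3p (1.00 for My5.LV and 0.33 for My5.CRBN) and miR-107 (0.93 and 0.36) had the highest values. miR-15b-5p had -0.76 and -0.08. With RNU6-2 alone as normalizer the value of miR-15b-5p in My5.LV cells was -1.82, past 3 fold, and miR-107 was below 0 at -0.13.

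As a description of pattern, the normalized levels of miR-107 over the 12 arrays were most like those of miR-484 (Pearson r 0.965, Spearman rho 0.825), miR-301a-3p (0.962, 0.937) and miR-98-5p (0.955, 0.881), among 305 miRNAs outside the group with a Ct under the cap on all arrays. Those of miR-16-5p were most like miR-330-3p (0.948, 0.867), miR-183-5p (0.935, 0.790) and miR-125b-5p (0.934, 0.783). All points share the control wells of their array as normalizer, and the 2 sh72 arrays carry part of the likeness. Over the 10 other arrays r was from 0.820 to 0.834 for the 3 relatives of miR-107 in pattern and from 0.640 to 0.700 for those of miR-16-5p. Within the group, the highest r values were those of miR-15b-3p with miR-103a-3p (0.962) and with miR-107 (0.951). miR-103a-3p and miR-107 had an r of 0.916, and miR-195-5p and miR-497-5p, from neighbouring genes, one of 0.385. Values within the group were not computed without the sh72 arrays.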

How the data were processed

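Per the labels, total RNA of OCI-My5 cells was isolated with a miRNeasy kit, reverse transcribed with a miScript II kit and measured by SYBR Green PCR on miScript miRNA PCR Arrays, with 12 arrays for 12 conditions. The deposited table gives 1 Ct per well, a score on the cycle scale with no normalization. The cycle threshold and baseline settings are not given in the sources used here. The authors' second table holds their own ratios of each array to un-treated My5.LV and was not used.

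Undetermined wells and Ct values above 35 were given a Ct of 35. From each well the average of RNU6-2, SNORD96A, SNORD95, SNORD72, SNORD68 and SNORD61 on its array was taken away. miRNAs at the cap on both arrays of a comparison were left out. Counts are of miRNAs that passed 3 fold in a given direction, the study's own limit. With 1 array per condition no pair of conditions has a replicate check, and no test was made. A model of cell line plus condition over the 12 arrays was not run. Arrays have no sequencing depth, and precision is limited by the number of arrays. Groups came from the sample titles. The alternatives tried were the global mean, RNU6-2 alone, the 5 SNORD wells, a Ct cap of 32, and subtraction of the median of miRNAs within 1 cycle in mean Ct. The members, the lists and the rule for the miRNAs named (all members, miR-424-5p as seed relative, and the 3 miRNAs most alike in pattern to miR-107 and to miR-16-5p) were chosen with earlier results of these data known. Sequences and positions are from RefSeq on GRCh38.p14, and 330 of 372 assay names matched. The comparison of the lines over the 6 matched conditions, that of arms over all hairpins, and the position of the sh72 and 120 hour arrays under other normalizers were added after seeing the data. The scripts were tested on simulated data. Python 3.11.15, NumPy 2.4.6, pandas 2.3.3 and Matplotlib 3.10.9 were used.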

Additional observations from a re-analysis of the deposited data

Results flagged for a closer look

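The log2 fold change of miR-195-3p in AGO2 cDNA treated against sh72 treated cells was 0.26 in My5.LV cells (SD of control wells 0.230) and -0.83 in My5.CRBN cells (SD 0.389), a difference of -1.09 between the lines. It stood out because the value had opposite signs in the 2 cell lines and lay outside the SD of the control wells in each. The opposite signs depended on the normalizer: the values were -0.79 and -1.14 with the global mean, and -1.12 and -1.91 after subtraction of miRNAs of similar Ct. The difference was not tested.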

How the results depend on the processing

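With 1 array per condition, a replicate block could not be fitted and no replicate could be left out, and the lines were compared over matched conditions without a test. A value or median was called moved where it shifted by more than the SD of the control wells. The 5 SNORD wells and the Ct cap of 32 moved none of the 26 medians and counts of the guide arms. They also moved none of the 117 values of single members. For the cap this was fixed in advance, since the highest Ct of a member was 29.29 (miR-107, My5.LV cells with sh72). Leaving out RNU6-2 can only shift a log2 fold change by less than that SD, so no value or median could be called moved. Neither alternative is thus a check of the values or medians. No called value changed sign in any of the 5 alternatives. With sh72, the median of all miRNAs under the global mean is near 0 by its construction, and the median of the guide arms became -0.95 for My5.LV and -1.15 for My5.CRBN, with 1 guide arm at least 3 fold lower in each. After subtraction of miRNAs of similar Ct these medians were -0.17 and -0.52, with 0 guide arms past 3 fold in each line, and with RNU6-2 alone they were -2.80 and -2.15. For AGO2 cDNA against sh72, the median in My5.LV cells was 0.29 under the global mean, 1.68 under RNU6-2 and 0.067 after subtraction of similar Ct, and in My5.CRBN cells it was 0.60 after that subtraction. Guide arms past 3 fold were then 1 in My5.LV cells (global mean, and similar Ct) and 1 in My5.CRBN cells (similar Ct). With RNU6-2 alone, the medians were -0.16 for My5.CRBN against My5.LV, -0.62 for AGO2 cDNA in My5.LV cells, and -0.89 and -0.62 for AGO2 cDNA with lenalidomide in My5.LV and My5.CRBN cells, with 1 guide arm past 3 fold in My5.LV cells. With lenalidomide in My5.CRBN cells, the median at 72 hours was -0.63 with the global mean and 0.047 after subtraction of similar Ct, and at 120 hours 0.54 with the global mean. At 120 hours in My5.LV cells the median after that subtraction was 0.38, and with the global mean 1 guide arm was past 3 fold there, as was 1 in My5.CRBN against My5.LV. The cause of these shifts was not tested.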
